A study of Mus musculus with 24 samples.

Results

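Interferon-stimulated genes were followed as a set of 41 named genes in macrophages grown from mouse bone marrow. The set was defined by gene symbol, and all 41 symbols were found among the 54429 of the deposited tables. Macrophages came from C57BL/6N mice with or without MAPKAP kinase-2 (MK2, gene Mapkapk2), a kinase that p38 activates. The 4 groups of 6 libraries were KO M2, KO M0, WT M2 and WT M0. KO and WT stand for the MK2 genotypes, M2 for cells harvested 24 h after IL-4 was added at 10 ng/ml, and M0 for cells left without it. In all groups the marrow had been grown with M-CSF at 10 ng/ml and replated on day 7. The series title names angiogenic factors of macrophages in inflammation-driven colon cancer. The cells here were grown from marrow in culture, a model without tumour, and the labels name no added interferon. The labels do not say which part of Mapkapk2 is deleted, nor whether each replicate is its own animal. The p-values therefore rest on the spread of these libraries, which may be technical.

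Interferons are secreted proteins that cells release on sensing viral or misplaced nucleic acid. Type I interferon binds IFNAR1 and IFNAR2, whose kinases JAK1 and TYK2 activate a complex that holds STAT2 and IRF9 and binds the interferon-stimulated response element (ISRE) of target promoters. Type II interferon acts through the GAS palindrome and is the stronger inducer of IRF1 and of the GBP and IRG GTPases. Many of these genes are transcribed at a low level in macrophages at rest, from interferon the cells make themselves. IL-4 acts through another factor, STAT6, which binds a palindrome with a wider gap.

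The promoters below are those of the genes on which the IL-4 results turn, with Isg15 as a member that passed no threshold. They are 300 bases each from RefSeq on GRCm38.p6, from 250 before to 50 after the annotated start, written 5′ to 3′ on the gene's strand, with motif matches in capitals. In Ifit1, Ifit3 and Isg15 the capitals are the ISRE core GAAANNGAAA or its reverse complement TTTCNNTTTC, and in Ifit2 and Irf1 they are the GAS palindrome TTCNNNGAA.
Ifit3 (chr19:34583279-34583578, plus strand): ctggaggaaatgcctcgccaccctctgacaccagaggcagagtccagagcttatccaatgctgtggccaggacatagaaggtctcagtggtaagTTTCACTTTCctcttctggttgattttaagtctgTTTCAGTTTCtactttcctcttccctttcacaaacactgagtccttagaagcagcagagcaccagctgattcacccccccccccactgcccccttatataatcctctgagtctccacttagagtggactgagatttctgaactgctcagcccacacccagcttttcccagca
Ifit1 (chr19:34640639-34640938, plus strand): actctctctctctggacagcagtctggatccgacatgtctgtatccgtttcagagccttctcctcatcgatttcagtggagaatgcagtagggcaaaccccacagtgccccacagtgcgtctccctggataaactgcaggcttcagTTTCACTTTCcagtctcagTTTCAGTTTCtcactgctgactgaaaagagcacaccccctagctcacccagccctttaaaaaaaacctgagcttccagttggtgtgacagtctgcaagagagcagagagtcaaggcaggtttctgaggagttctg
Ifit2 (chr19:34550444-34550743, plus strand): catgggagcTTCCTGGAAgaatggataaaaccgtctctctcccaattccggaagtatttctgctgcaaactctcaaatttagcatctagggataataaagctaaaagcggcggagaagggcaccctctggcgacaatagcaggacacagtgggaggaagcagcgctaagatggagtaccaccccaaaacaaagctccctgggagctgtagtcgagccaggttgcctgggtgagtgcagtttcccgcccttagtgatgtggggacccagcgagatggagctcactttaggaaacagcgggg
Isg15 (chr4:156200769-156201068, minus strand): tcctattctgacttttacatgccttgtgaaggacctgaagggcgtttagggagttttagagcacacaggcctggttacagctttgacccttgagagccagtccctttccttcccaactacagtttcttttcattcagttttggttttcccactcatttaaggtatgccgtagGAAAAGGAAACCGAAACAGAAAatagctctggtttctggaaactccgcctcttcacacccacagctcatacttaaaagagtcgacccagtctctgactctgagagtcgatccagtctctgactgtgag
Irf1 (chr11:53769764-53770063, plus strand): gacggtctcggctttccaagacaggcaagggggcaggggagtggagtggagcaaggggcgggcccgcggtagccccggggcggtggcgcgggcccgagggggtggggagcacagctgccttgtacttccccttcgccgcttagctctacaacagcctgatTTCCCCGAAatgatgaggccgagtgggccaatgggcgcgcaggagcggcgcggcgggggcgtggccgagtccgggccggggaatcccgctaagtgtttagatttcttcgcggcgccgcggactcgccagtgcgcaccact
Ifit3 held 2 cores, the first starting at -156 and the second at -122 from the start site. Ifit1 held 2 cores, starting at -104 and -85. In Isg15 there were 3 cores that overlap each other, between -78 and -57. Ifit2 had no core in this window or in its second annotated window, which is not printed and held a STAT6 palindrome from -147 to -138. Irf1 had 1 GAS match from -90 to -82.

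RefSeq windows were found for 30 of the 41 members, in 37 windows. An ISRE core on either strand was present in 16 of the 30 members (53.3%), against 3.99% of 27025 genes with a window. The GAS palindrome was present in 7 members (23.3%, against 9.55% of all genes), and the STAT6 palindrome TTCNNNNGAA also in 7 members (23.3%, against 8.01%). The ISRE share was 7 of 14 among members that were lower with IL-4 in either genotype and 9 of 13 among tested members past the threshold in neither direction. A match is a run of letters and was not tested as a binding site. GAS and STAT6 matches can overlap an ISRE core, as in Bst2 and Oas1a. Mx1, Mx2, Oas2, Usp18, Dhx58, Zbp1, Ifi204, Ifi27l2a, Rtp4, Parp9 and Parp14 were not matched to a window.

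**Figure D1:**
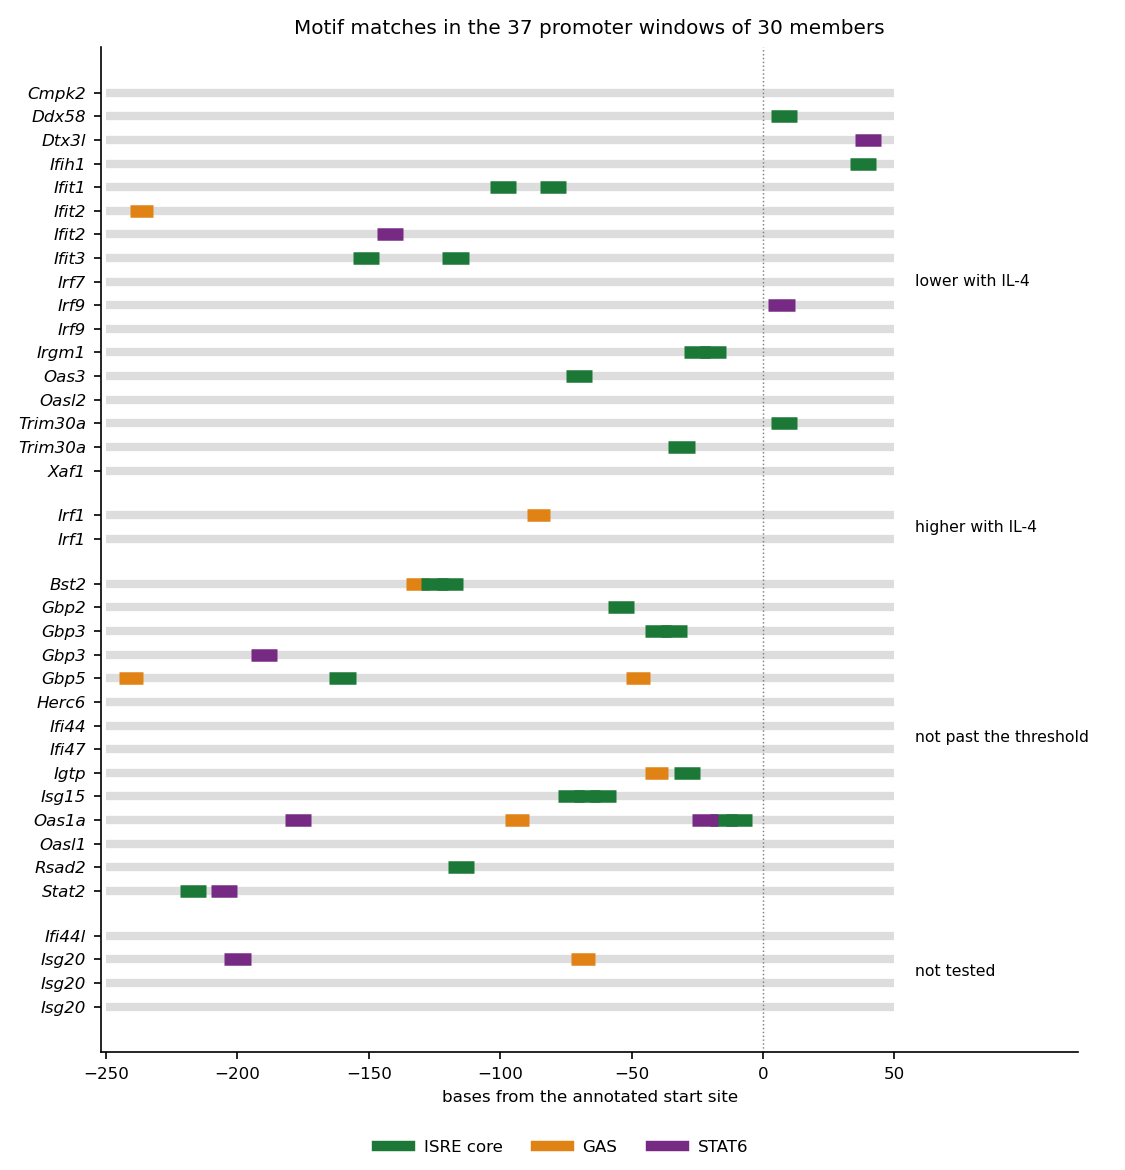
Matches to 3 motifs in 37 promoter windows of 30 interferon-stimulated genes, one row per annotated start site, by distance in bases from the start (dotted line). Rows are grouped by the IL-4 result, and green ISRE cores occur in 7 of 14 members lower with IL-4 and 9 of 13 not past the threshold.

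Total counts were 7893809 to 13492507 per library. The targeted gene Mapkapk2 had 47.8, 54.0 and 60.7 CPM in KO M2 (lowest, median and highest library), against 113, 116 and 139 CPM in WT M2. Without IL-4 it had 54.7, 58.7 and 63.4 CPM in KO M0, against 100.3, 117 and 138 CPM in WT M0. The groups were apart, with a log2 fold change of -1.15 (SE 0.07, edgeR adjusted p = 2.26e-11) with IL-4 and -1.01 (SE 0.07, edgeR adjusted p = 1.33e-10) without, and each set of 3 values below is given in this order over the 6 libraries of a group. IL-4 raised Retnla and Arg1, standard marks of its action, in both genotypes (log2 fold change 6.30 for Arg1 in KO and 5.66 in WT). All 8 macrophage markers were detected, with a summed level of 13044 to 15224 CPM in KO M2, 13626 to 16023 in KO M0, 15344 to 19141 in WT M2 and 15209 to 20117 in WT M0. Library numbers in the labels run in blocks that follow replicates 1 to 3 and 4 to 6, except for 3 libraries numbered apart (KO M2 replicate 2, WT M2 replicate 2 and WT M0 replicate 3), and what these blocks stand for is not given. In bulk RNA, fewer cells of a type and less RNA per cell cannot be told apart.

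Levels between genes can be compared per length only in GETMM values, which the authors scaled for gene length and library. In WT M0 cells the highest member was Ifi204, a DNA-sensing protein of the PYHIN family, at 146 ± 22.9 GETMM (SD, n = 6). Ifi27l2a followed at 89.9 ± 32.3, then Bst2, which tethers budding virus to the membrane, at 71.0 ± 20.8, and Irf1 at 58.6 ± 14.3. The SDs of Ifi27l2a and Bst2, and of Bst2 and Irf1, overlap. Reads of Ifi204 could be shared with related genes such as Ifi207, which had 2913 to 5581 counts per library in WT M0. The lowest tested members were Mx2 at 1.68 ± 0.632 and Ifi44 at 1.47 ± 0.512 GETMM. Isg20, an exonuclease that degrades viral RNA, had 21, 35, 42 and 56 counts summed over KO M2, KO M0, WT M2 and WT M0, and was too low to test. Ifi44l had 0 counts in all 24 libraries, which allows up to 0.0128 CPM, counting error only. The other 39 members passed the count filter and are the ones tested.

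IL-4 lowered the 3 IFIT genes, Oas2, Mx1, Irf9 and Irf7 in both genotypes and raised Irf1, while most GBP and IRG GTPases passed no threshold. The Irf7 call in WT was near the threshold (edgeR adjusted p = 0.0454) and held in 10 of 24 fits that each left out 1 library. In KO macrophages 16 of 39 tested members were lower and 2 higher with IL-4, against 11.4% lower and 12.2% higher of 12797 genes tested (23.6% in either direction). In WT macrophages 16 members were lower and 1 was higher, against 7.95% lower and 8.49% higher of all genes (16.4% in either direction). The median member's log2 fold change was -0.34 in KO and -0.30 in WT, against -0.00 and -0.02 for all genes tested. The fit used here was unpaired, though the labels give each M2 library and 1 M0 library of its genotype a shared culture number. The 2 comparisons share no library, but they come from 1 fit with a shared estimate of the spread. In both, 13 members were lower, which is 81.25% of each list of 16. The share of all genes lower in both was not counted. The count in WT rests on few libraries: it was 7 without WT M0 replicate 5, and also 7 without WT M2 replicate 1 or WT M2 replicate 2. It was 10 without WT M0 replicate 4. In fits of 1 set it was 6 in replicates 1 to 3 (6.72% of all genes called in either direction) and 9 in replicates 4 to 6 (13.1%). In a fit of group and set together it was 7 in replicates 1 to 3 and 5 in replicates 4 to 6, with shares of all genes not given.

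**Figure D2:**
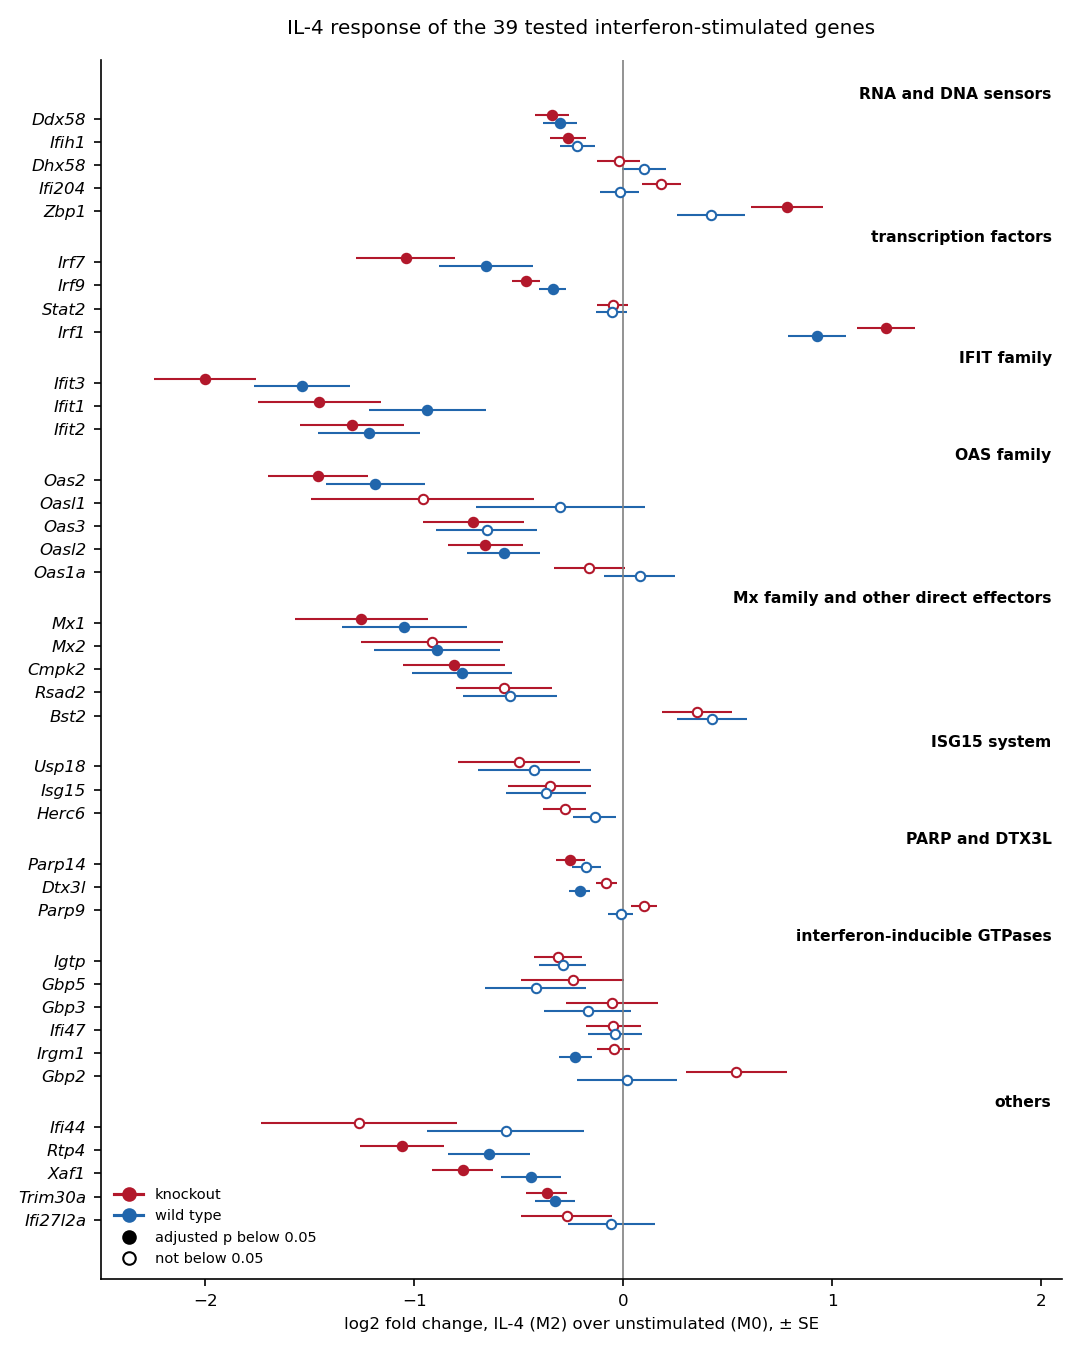
Log2 fold change of the 39 tested members with IL-4 over without (x axis, ± SE), by role, in KO (red) and WT (blue), filled where the edgeR adjusted p is below 0.05. Ifit3 lies furthest left in both genotypes, at -2.0 in KO, and Irf1 furthest right, at 1.26 in KO.

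Among the transcription factors Irf1 rose, Irf7 and Irf9 fell, and Stat2 passed no threshold. Irf1 (chr11:53770014-53778374, plus strand, GRCm38), an activator of interferon and GBP genes that itself responds to STAT factors, had 75.6, 92.1 and 102 CPM in KO M2, against 33.9, 37.7 and 43.3 CPM in KO M0. In WT macrophages it had 59.5, 70.4 and 104 CPM in WT M2, against 32.7, 37.3 and 60.5 CPM in WT M0. The 2 KO groups did not overlap, while the lowest WT M2 library lay just below the highest WT M0 library. Its log2 fold change was 1.26 (SE 0.14, edgeR adjusted p = 1.48e-07) in KO and 0.93 (SE 0.14, edgeR adjusted p = 2.44e-05) in WT macrophages. Irf7, the factor that amplifies type I interferon production, had 3.13, 4.26 and 5.60 CPM in KO M2, against 7.13, 8.33 and 10.8 CPM in KO M0. In WT the gene had 4.02, 7.06 and 9.46 CPM in WT M2, against 4.64, 10.7 and 17.2 CPM in WT M0. The groups were separate in KO and overlapped widely in WT, where WT M0 replicate 1 was the lowest of its group. The Irf7 log2 fold change was -1.04 (SE 0.24, edgeR adjusted p = 0.00177) in KO and -0.66 (SE 0.22, edgeR adjusted p = 0.0454) in WT macrophages.

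Irf9 is the DNA-binding subunit of the complex with STAT2. It had 22.8, 25.9 and 27.3 CPM in KO M2, against 30.5, 36.9 and 38.0 CPM in KO M0, and 25.7, 28.1 and 28.8 CPM in WT M2, against 31.2, 34.9 and 39.3 CPM in WT M0. Every M2 library was below every M0 library in both genotypes, a separation seen in no other member except Ifit3. The Irf9 log2 fold change was -0.47 (SE 0.07, edgeR adjusted p = 6.27e-06) in KO and -0.34 (SE 0.07, edgeR adjusted p = 0.000605) in WT macrophages. Stat2, its partner in the complex, had 43.3, 48.3 and 51.7 CPM in KO M2, against 44.4, 50.4 and 55.2 CPM in KO M0, and 49.98, 52.3 and 54.6 CPM in WT M2, against 47.4, 51 and 67.9 CPM in WT M0. Its groups overlapped, and its log2 fold change was -0.05 in KO and -0.05 in WT, neither past the threshold.

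The IFIT proteins bind viral RNA that lacks the cell's own cap marks. Their genes lie side by side on chromosome 19, and all 3 members fell in both genotypes. Ifit3 (chr19:34583531-34588731, plus strand), whose promoter with 2 ISRE cores is printed above, had 2.87, 3.56 and 6.69 CPM in KO M2, against 11, 16.5 and 19.2 CPM in KO M0. In WT macrophages it had 3.90, 5.42 and 12.1 CPM in WT M2, against 14.5, 17.8 and 27.3 CPM in WT M0. No M2 library reached the lowest M0 library of its genotype. The Ifit3 log2 fold change was -2.0 (SE 0.24, edgeR adjusted p = 9.01e-07) in KO and -1.54 (SE 0.23, edgeR adjusted p = 3.04e-05) in WT macrophages.

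Ifit2 (chr19:34550694-34576419, plus strand) had 9.79, 13.4 and 18.8 CPM in KO M2, against 27.7, 29.9 and 41.6 CPM in KO M0, and 9.95, 15.0 and 27.6 CPM in WT M2, against 24.5, 35.5 and 61.2 CPM in WT M0. KO groups were separate, and in WT the highest M2 library, at 27.6 CPM, lay above the lowest M0 library. The Ifit2 log2 fold change was -1.30 (SE 0.25, edgeR adjusted p = 0.000413) in KO and -1.22 (SE 0.24, edgeR adjusted p = 0.00108) in WT macrophages. Ifit1 (chr19:34640871-34650009, plus strand) had 2.35, 3.04 and 5.58 CPM in KO M2, against 5.33, 9.99 and 11.1 CPM in KO M0, and 3.48, 4.93 and 11 CPM in WT M2, against 6.41, 8.21 and 18.7 CPM in WT M0. In WT M2 the highest library, replicate 5, stood well above the other 5. The Ifit1 log2 fold change was -1.45 (SE 0.29, edgeR adjusted p = 0.0006) in KO and -0.94 (SE 0.28, edgeR adjusted p = 0.0217) in WT macrophages. A pair of near copies in the same cluster, with which 40 bp reads could be shared, also fell: Ifit3b had a log2 fold change of -1.96 (SE 0.41, edgeR adjusted p = 0.000722) in KO and -1.86 (SE 0.39, edgeR adjusted p = 0.00132) in WT. For Ifit1bl1 it was -2.02 (SE 0.45, edgeR adjusted p = 0.00148) in KO and -1.83 (SE 0.44, edgeR adjusted p = 0.00486) in WT.

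**Figure D3:**
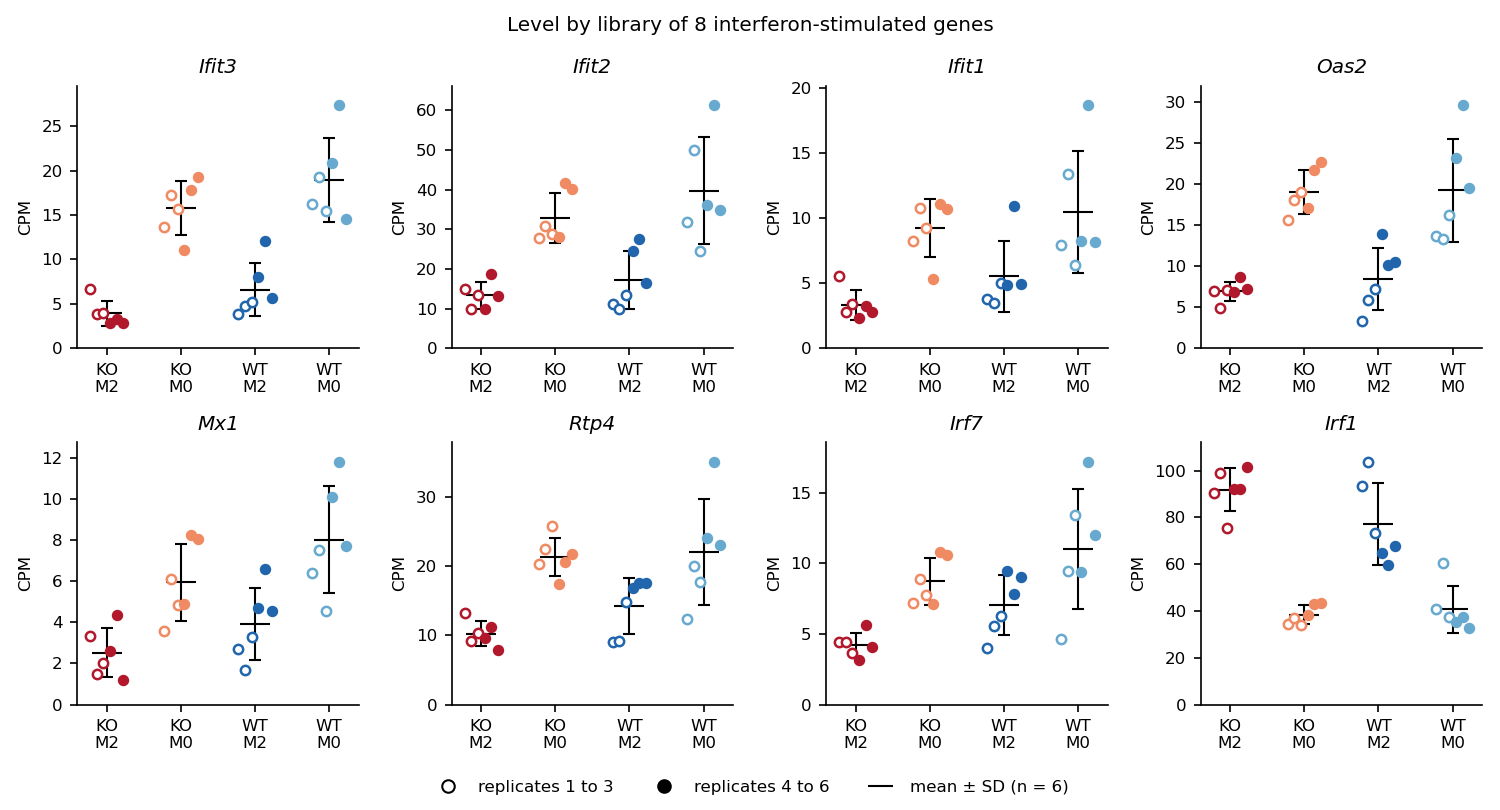
Level in CPM (y axis, from 0) of 8 members in each library of KO M2, KO M0, WT M2 and WT M0, open for replicates 1 to 3 and filled for 4 to 6, with mean ± SD. M2 means are below M0 means for 7 genes and above for Irf1, and WT M0 replicate 5 is the highest WT M0 library in every panel but Irf1.

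The OAS proteins are sensors of double-stranded RNA, and the OAS1 to OAS3 enzymes make the oligoadenylate that activates RNase L. Oas2 (chr5:120730333-120749853, minus strand) had 4.90, 6.98 and 8.63 CPM in KO M2, against 15.7, 18.5 and 22.6 CPM in KO M0. WT macrophages had 3.35, 8.65 and 13.9 CPM in WT M2, against 13.3, 17.8 and 29.5 CPM in WT M0. KO groups were far apart, and in WT a single M2 library, at 13.9 CPM, overlapped the lowest M0 libraries. The Oas2 log2 fold change was -1.46 (SE 0.24, edgeR adjusted p = 6.1e-05) in KO and -1.19 (SE 0.23, edgeR adjusted p = 0.000836) in WT macrophages. Oasl2, a ubiquitin-like relative, also fell in both genotypes, with a log2 fold change of -0.66 (SE 0.18, edgeR adjusted p = 0.00823) in KO and -0.57 (SE 0.18, edgeR adjusted p = 0.0260) in WT. Oas3, the largest protein of the family, had 12.6, 13.9 and 14.6 CPM in KO M2, against 18.3, 23.3 and 25.8 CPM in KO M0, and 7.25, 15.2 and 17.6 CPM in WT M2, against 8.66, 20.4 and 37.4 CPM in WT M0. It fell in KO, with a log2 fold change of -0.72 (SE 0.24, edgeR adjusted p = 0.0319), and was -0.65 (SE 0.24, edgeR adjusted p = 0.0684) in WT. The spread over WT libraries was several times that over KO libraries. Oas1a had a log2 fold change of -0.16 in KO and 0.08 in WT, neither past the threshold. Reads of Oas1a can be shared with its near copy Oas1g, for which the values were -0.10 and -0.30, also not past it.

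Mx1 is a GTPase that blocks influenza virus, and C57BL/6 mice carry a defective allele of it, so the transcript counted is not that of a working protein. It had 1.2, 2.32 and 4.37 CPM in KO M2, against 3.60, 5.49 and 8.24 CPM in KO M0. In WT macrophages it had 1.70, 3.92 and 6.60 CPM in WT M2, against 4.53, 7.63 and 11.8 CPM in WT M0. The groups overlapped in each genotype. The Mx1 log2 fold change was -1.25 (SE 0.32, edgeR adjusted p = 0.00442) in KO and -1.05 (SE 0.30, edgeR adjusted p = 0.0169) in WT macrophages. Mx2, annotated as a polymorphic pseudogene in GENCODE M21, had 0.485, 0.929 and 1.62 CPM in WT M2, against 0.707, 1.86 and 2.85 CPM in WT M0. It fell in WT, with a log2 fold change of -0.89 (SE 0.30, edgeR adjusted p = 0.0427), and was -0.91 (SE 0.34, edgeR adjusted p = 0.0529) in KO.

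Cmpk2, a mitochondrial nucleotide kinase next to Rsad2 in the genome, had 6.61, 9.77 and 10.9 CPM in KO M2, against 11, 16.3 and 20.8 CPM in KO M0. In WT the gene had 7.04, 9.48 and 22.0 CPM in WT M2, against 14, 17.1 and 33.5 CPM in WT M0. The KO groups did not meet, though 10.9 CPM in M2 came close to 11 CPM in M0. The Cmpk2 log2 fold change was -0.81 (SE 0.24, edgeR adjusted p = 0.0165) in KO and -0.77 (SE 0.24, edgeR adjusted p = 0.0276) in WT macrophages. Rsad2 encodes viperin, an enzyme that makes a chain-terminating nucleotide. Its log2 fold change was -0.57 (SE 0.23, edgeR adjusted p = 0.0797) in KO and -0.54 (SE 0.23, edgeR adjusted p = 0.111) in WT, short of the threshold in both. Bst2 had values above 0, at 0.35 in KO and 0.43 in WT, also short of it.

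The ISG15 system attaches and removes a ubiquitin-like tag. None of its 3 members passed the threshold in either genotype, and all values were negative. Isg15, the tag itself, had 2.48, 2.93 and 3.67 CPM in KO M2, against 2.53, 3.66 and 4.84 CPM in KO M0, and 2.95, 3.66 and 4.45 CPM in WT M2, against 3.14, 4.16 and 7.70 CPM in WT M0, with overlap of the groups in each genotype. Its log2 fold change was -0.35 (SE 0.20, edgeR adjusted p = 0.223) in KO and -0.37 (SE 0.19, edgeR adjusted p = 0.205) in WT. Usp18, which removes the tag and dampens IFNAR signalling, was at -0.50 in KO and -0.43 in WT. Herc6, the ligase of the mouse, was at -0.28 in KO and -0.14 in WT.

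Of the ADP-ribosyl transferases and their partner, 1 of 3 members fell in each genotype, and the member differed. Parp14 fell in KO, with a log2 fold change of -0.25 (SE 0.07, edgeR adjusted p = 0.00796), and was -0.18 (SE 0.07, edgeR adjusted p = 0.0838) in WT. Dtx3l, a ubiquitin ligase that works with PARP9, fell in WT with a log2 fold change of -0.21 (SE 0.05, edgeR adjusted p = 0.00528) and was -0.08 (SE 0.05, edgeR adjusted p = 0.293) in KO. Parp9 was at 0.10 in KO and -0.01 in WT. Parp9 (chr16:35938470-35972605, plus strand) and Dtx3l (chr16:35926511-35939151, minus strand) overlap on opposite strands, and without stated strand their shared reads cannot be told apart.

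Interferon-inducible GTPases attack vacuoles that hold bacteria or parasites and respond mainly to type II interferon. Of 6 members, 0 passed the threshold in KO and 1 fell in WT. That gene was Irgm1, a regulator of the family, with a log2 fold change of -0.23 (SE 0.08, edgeR adjusted p = 0.0492) in WT and -0.05 (SE 0.08, edgeR adjusted p = 0.758) in KO. Its call in WT held in 6 of the 24 fits that left out 1 library. Gbp2, a guanylate-binding protein, had 16.4, 18.7 and 25.8 CPM in KO M2, against 10.9, 13.8 and 15.7 CPM in KO M0, and 12.9, 18.6 and 27.8 CPM in WT M2, against 11.6, 16.1 and 39.9 CPM in WT M0. Every KO M2 library lay above every KO M0 library, while WT M0 replicate 2 stood far above the other WT M0 libraries. The Gbp2 log2 fold change was 0.54 (SE 0.24, edgeR adjusted p = 0.118) in KO and 0.02 (SE 0.24, edgeR adjusted p = 0.974) in WT. Gbp3, Gbp5, Ifi47 and Igtp lay between -0.31 and -0.05 in KO and between -0.42 and -0.04 in WT.

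Among the nucleic acid sensors, Ddx58 (RIG-I) fell in both genotypes, with a log2 fold change of -0.34 (SE 0.08, edgeR adjusted p = 0.00241) in KO and -0.30 (SE 0.08, edgeR adjusted p = 0.00943) in WT. Ifih1 (MDA5), which senses long double-stranded RNA, fell in KO with -0.26 (SE 0.09, edgeR adjusted p = 0.0248) and was -0.22 (SE 0.08, edgeR adjusted p = 0.0793) in WT. Zbp1, a sensor of left-handed nucleic acid that can start necroptosis, rose in KO. It had 4.08, 5.32 and 7.92 CPM in KO M2, against 2.71, 3.06 and 4.64 CPM in KO M0, and 6.82, 8.44 and 9.47 CPM in WT M2, against 4.39, 6.12 and 7.38 CPM in WT M0. The groups overlapped in both genotypes. The Zbp1 log2 fold change was 0.78 (SE 0.17, edgeR adjusted p = 0.00124) in KO and 0.42 (SE 0.16, edgeR adjusted p = 0.0780) in WT macrophages. Dhx58, a regulator of RIG-I and MDA5, and Ifi204 stayed within -0.02 and 0.18 in KO and within -0.02 and 0.10 in WT, none past the threshold.

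Of the other members, Rtp4, Trim30a and Xaf1 fell in both genotypes. Rtp4, a receptor chaperone that restrains interferon signalling in mouse, had 7.93, 9.94 and 13.2 CPM in KO M2, against 17.4, 21.1 and 25.7 CPM in KO M0. WT macrophages had 9.04, 15.8 and 17.6 CPM in WT M2, against 12.3, 21.5 and 35.0 CPM in WT M0. KO groups were apart, and in WT the groups overlapped, WT M0 replicate 1, at 12.3 CPM, being the 1 M0 library inside the M2 range. The Rtp4 log2 fold change was -1.06 (SE 0.20, edgeR adjusted p = 0.00031) in KO and -0.64 (SE 0.20, edgeR adjusted p = 0.0251) in WT macrophages. Xaf1, a partner of apoptosis regulators, had a log2 fold change of -0.77 (SE 0.15, edgeR adjusted p = 0.000273) in KO and -0.44 (SE 0.14, edgeR adjusted p = 0.0339) in WT. Trim30a, which restrains NF-kB signalling in mouse, had -0.36 (SE 0.10, edgeR adjusted p = 0.00704) in KO and -0.33 (SE 0.10, edgeR adjusted p = 0.0216) in WT, and its reads can be shared with Trim30d, at -0.38 in KO and -0.28 in WT. Ifi44 and Ifi27l2a did not pass the threshold in either genotype.

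In 24 further fits, each without 1 library, the WT calls of Ifit3, Ifit2, Oas2, Mx1, Irf9, Ddx58, Dtx3l and Irf1 all held. The WT calls of Ifit1, Cmpk2, Irf7, Mx2, Oasl2, Rtp4, Trim30a, Xaf1 and Irgm1 were lost without WT M0 replicate 5, and likewise without WT M2 replicate 1 or WT M2 replicate 2. Their highest edgeR adjusted p over the 24 fits was between 0.0764 for Oasl2 and 0.141 for Irf7. Ifit1 and Trim30a lost the call in these 3 fits and no other. Oasl2 and Rtp4 lost the call without WT M0 replicate 4 too, and Cmpk2 without WT M2 replicate 3 or 6. Xaf1 was lost in 7 of the 24 fits and Mx2 in 9, each time without a WT library. Irf7 was lost in 14 and Irgm1 in 18, some of them without a KO library. In KO all calls held except those of Ifih1, lost without KO M0 replicate 2 or 3 or KO M2 replicate 1, 2 or 4 (highest edgeR adjusted p = 0.0672), and Oas3, lost without KO M0 replicate 2, 3, 5 or 6 or KO M2 replicate 2, 4 or 6 (highest 0.0641). The direction was kept in every one of these fits.

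Counting only members whose libraries did not overlap between M2 and M0, 12 were lower and 2 higher in KO, against 5.82% and 8.17% of all genes. The 12 were Ifit2, Ifit3, Oas2, Oas3, Oasl2, Irf7, Irf9, Ddx58, Cmpk2, Trim30a, Xaf1 and Rtp4, and the 2 were Irf1 and Gbp2. In WT 2 were lower, Ifit3 and Irf9, and 0 higher, against 3.41% and 4.75% of all genes. Among markers of plasmacytoid dendritic cells, which are strong interferon producers, Siglech had 3 counts over KO M2, 15 over KO M0, 8 over WT M2 and 4 over WT M0. Of the 7 markers on that list 5 were too low to test. Cox6a2 had 0.785 to 1.65 CPM in KO M2, 0.935 to 1.80 in KO M0, 1.02 to 2.15 in WT M2 and 0.633 to 2.3 in WT M0, and passed no threshold with IL-4. Tcf4, a factor that other cells express too, was the 1 marker at a high level, and fell in KO with a log2 fold change of -0.26. The summed level of the list, nearly all of it Tcf4, was 62.2 to 77.2 CPM in KO M2, 82.7 to 98.6 in KO M0, 73.1 to 92.9 in WT M2 and 84.2 to 119.9 in WT M0, and its part in the IL-4 results was not tested.

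Interferons themselves were barely detected. Of 14 ligand genes, 12 had 0 counts in all 24 libraries, Ifnb1 and Ifng among them, Ifna2 had 1 count and Ifnz had 5, of 234776516 counts in all. A gene at 0 is limited to 0.0128 CPM over the 24 libraries, counting error only. Of the other 31 pathway genes tested, 7 were lower and 6 higher with IL-4 in KO, and 5 lower and 4 higher in WT. These are 22.6% lower and 19.4% higher in KO and 16.1% lower and 12.9% higher in WT. Each is above the share of all genes given with the members' counts, but rests on 4 to 7 genes, and the difference was not tested. The receptor chains Ifnar1 and Ifnar2 did not pass the threshold, with log2 fold changes of 0.05 and -0.11 in KO and -0.01 and -0.16 in WT.

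Socs1, an inhibitor of JAK kinases that both IL-4 and interferon induce, had 0.897, 2.33 and 4.80 CPM in KO M2, against 0.200, 0.502 and 1.01 CPM in KO M0, and 1.53, 2.23 and 5.74 CPM in WT M2, against 0.125, 0.540 and 1.17 CPM in WT M0. The Socs1 log2 fold change was 2.32 (SE 0.46, edgeR adjusted p = 0.000466) in KO and 2.18 (SE 0.46, edgeR adjusted p = 0.00137) in WT macrophages. Jak2, a kinase of the type II interferon receptor, also rose, with 1.69 (SE 0.12, edgeR adjusted p = 7.22e-11) in KO and 1.26 (SE 0.12, edgeR adjusted p = 2.32e-08) in WT. Tlr9, the receptor for unmethylated DNA in endosomes, fell, with -1.14 (SE 0.14, edgeR adjusted p = 5.48e-07) in KO and -0.79 (SE 0.14, edgeR adjusted p = 0.000185) in WT. Tlr7, its counterpart for single-stranded RNA, had a log2 fold change of -0.36 (SE 0.08, edgeR adjusted p = 0.000751) in KO and -0.45 (SE 0.08, edgeR adjusted p = 0.00011) in WT.

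Between genotypes most members had no call. With IL-4, 3 of 39 tested members were lower in KO M2 than in WT M2 and 0 higher, against 3.09% lower and 1.51% higher of all genes (4.59% in either direction). Without IL-4, 2 were lower in KO M0 than in WT M0 and 0 higher, against 3.42% lower and 1.1% higher (4.52% in either direction). The median member's log2 fold change was -0.29 with IL-4 and -0.20 without it, against 0.01 and -0.01 for all genes. With IL-4 the members' median was -0.10 in replicates 1 to 3 alone and -0.35 in replicates 4 to 6 alone. Without IL-4 it was -0.08 in replicates 1 to 3 alone and -0.26 in replicates 4 to 6 alone, and -0.13 without WT M0 replicate 5. At an unadjusted p below 0.05 there were 16 members with IL-4, against 13.2% of all genes, and 10 without it, against 15.1%. These comparisons share the KO M2 and WT M2, or KO M0 and WT M0, libraries with the IL-4 comparisons.

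Oasl1, which in mouse limits translation of Irf7, was lower in KO in both states. It had 0.0784, 0.436 and 1.01 CPM in KO M2, against 0.566, 2.36 and 4.27 CPM in WT M2. Without IL-4 it had 0.50, 0.810 and 1.27 CPM in KO M0, against 0.825, 3.09 and 4.38 CPM in WT M0. The groups overlapped, as the lowest WT libraries lay within the KO range. Its log2 fold change was -2.26 (SE 0.49, edgeR adjusted p = 0.00452) with IL-4 and -1.60 (SE 0.44, edgeR adjusted p = 0.0318) without. Ifi44, an interferon-induced protein of the cytoplasm, had 0.235, 0.429 and 0.669 CPM in KO M2, against 0.335, 1.67 and 2.99 CPM in WT M2. Without IL-4 it had 0.361, 1.05 and 1.61 CPM in KO M0, against 1.41, 2.31 and 3.68 CPM in WT M0. The log2 fold change of Ifi44 was -1.92 (SE 0.45, edgeR adjusted p = 0.00943) with IL-4 and -1.22 (SE 0.39, edgeR adjusted p = 0.0810) without. Both genes were near the low end of the tested range.

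Zbp1 had 4.08, 5.32 and 7.92 CPM in KO M2, against 6.82, 8.44 and 9.47 CPM in WT M2, and 2.71, 3.06 and 4.64 CPM in KO M0, against 4.39, 6.12 and 7.38 CPM in WT M0. All KO M0 libraries but replicate 1 lay below the lowest WT M0 library. The log2 fold change was -0.49 (SE 0.16, edgeR adjusted p = 0.101) with IL-4 and -0.85 (SE 0.17, edgeR adjusted p = 0.00215) without. Ddx58 had 24.0, 27.6 and 30.3 CPM in KO M2, against 31.4, 32.8 and 34.5 CPM in WT M2. It was the 1 member whose KO M2 and WT M2 libraries did not overlap (2.54% of all genes were lower without overlap), and in M0 no member was lower (2.5% of all genes) or higher (0.977%) without overlap. Its log2 fold change was -0.29 (SE 0.08, edgeR adjusted p = 0.0389) with IL-4 and -0.25 (SE 0.08, edgeR adjusted p = 0.0845) without. Without 1 library, the calls of Oasl1 with IL-4, Ifi44 with IL-4 and Zbp1 without IL-4 held in all 24 fits. That of Oasl1 without IL-4 was lost without WT M0 replicate 3, 4, 5 or 6 or KO M0 replicate 1, 2, 3 or 4 (highest edgeR adjusted p = 0.0870), and that of Ddx58 with IL-4 without any WT M2 library but replicate 2, without KO M2 replicate 1, 2, 3 or 5, or without KO M0 replicate 5 (highest 0.111). Irf7 with IL-4 passed the threshold in the fits without WT M0 replicate 1 or WT M2 replicate 1, and the count of lower members with IL-4 was 5 without WT M0 replicate 1. In a fit of replicates 1 to 3 alone, 0 members passed the threshold between genotypes with IL-4 (2.41% of all genes) or without it (3.48%). In replicates 4 to 6 alone 6 were lower and 1 higher with IL-4 (8.28% of all genes in either direction), and 8 lower without it (7.45%). In the fit of group and set together, 1 member was lower in replicates 1 to 3 in each state. In replicates 4 to 6 of that fit, 5 were lower and 1 higher with IL-4, and 3 lower without it. Shares of all genes are not given for that fit.

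Markers of stromal cells and fibroblasts moved with genotype. All 10 tested of 12 were lower in KO in both states, and their summed level was 9.26 to 21.6 CPM in KO M2, against 105 to 146 in WT M2. It was 9.03 to 27.4 CPM in KO M0, against 113 to 176 in WT M0, and Lum was the 1 marker at 0 in KO M0. Whether cells of this kind contribute to the genotype results of Oasl1, Ifi44, Zbp1 and Ddx58 was not tested.

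**Figure D4:**
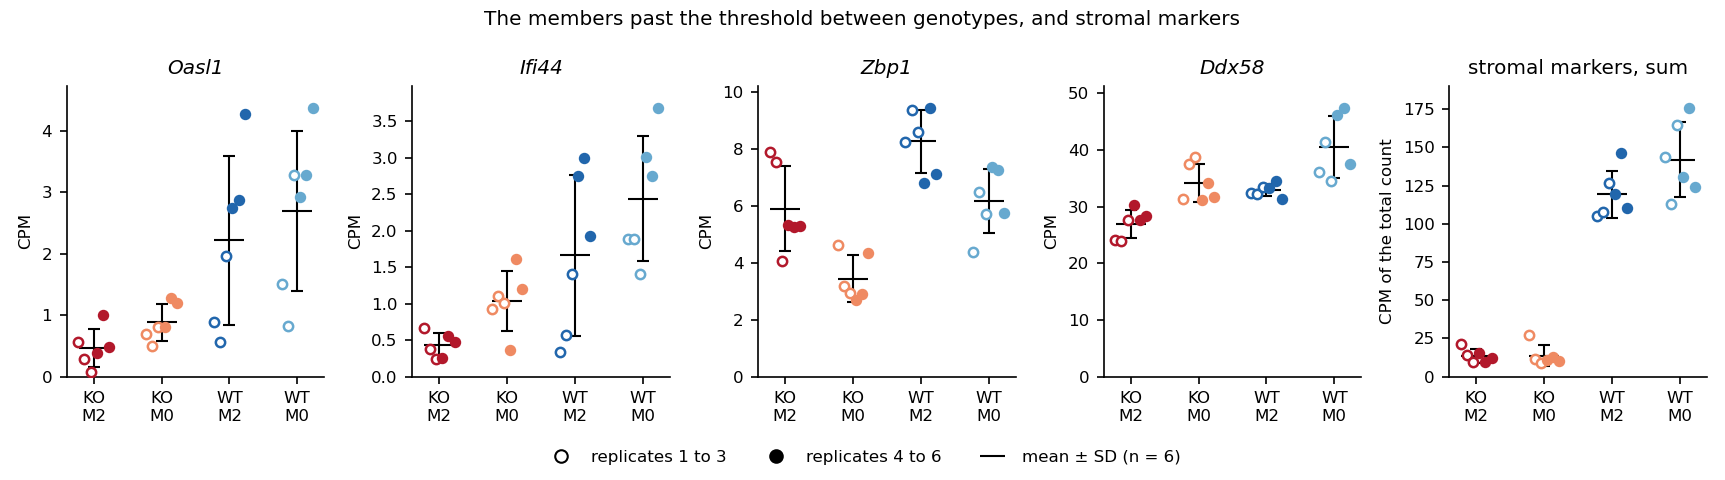
Level in CPM (y axis, from 0) of the 4 members past the threshold between genotypes, and the summed level of 12 stromal markers, in each library of KO M2, KO M0, WT M2 and WT M0, open for replicates 1 to 3, with mean ± SD. Ddx58 in M2 is the panel gene whose KO and WT libraries do not overlap, and the marker sums are apart in both states.

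The IL-4 response itself was compared between genotypes by the difference of the 2 responses, KO minus WT. No member passed the threshold, 0 had an unadjusted p below 0.05 (3.05% of all genes), and 0 of 12797 genes passed it (0%) in the main edgeR fit. Other fits called 1 gene with DESeq2, 3 with limma, 2 with culture number as a block and 21 in replicates 4 to 6 alone. No member was among them. In the main edgeR fit the smallest unadjusted p among members was 0.0910, for Dtx3l, with a difference of 0.13 (SE 0.07, log2). For Ifit3 the difference was -0.46 (SE 0.33), and for Irf1 0.33 (SE 0.19). Members called in only 1 genotype, such as Zbp1, Oas3, Ifih1 and Parp14 in KO or Dtx3l, Irgm1 and Mx2 in WT, were therefore not shown to differ between genotypes.

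Replicates 1 to 3 and 4 to 6 differed in part of the set. With group as a term, 6 of 39 members were lower in replicates 1 to 3 than in 4 to 6 and 0 higher, against 2.17% lower and 1.61% higher of all genes (3.78% in either direction). The 6 were Oas2, Oasl1, Oasl2, Rsad2, Mx1 and Parp14, and the log2 difference was largest for Oasl1, at -1.06 (SE 0.25, edgeR adjusted p = 0.0172). In WT M2, Oasl1 had 0.566, 0.893 and 1.97 CPM in replicates 1 to 3, against 2.75, 2.86 and 4.27 CPM in replicates 4 to 6. Its 2 sets of 3 did not overlap there, while in WT M0 they did, with 0.825, 1.51 and 3.28 CPM against 2.91, 3.27 and 4.38 CPM. Oas2 had 3.35, 5.82 and 7.21 CPM in replicates 1 to 3 of WT M2, against 10.1, 10.5 and 13.9 CPM in replicates 4 to 6. In WT M0 Oas2 had 13.3, 13.7 and 16.2 CPM, against 19.5, 23.1 and 29.5 CPM, and again the sets did not overlap. The log2 difference was -0.56 (SE 0.12, edgeR adjusted p = 0.00885) for Oas2 and -0.65 (SE 0.17, edgeR adjusted p = 0.0345) for Mx1. In KO M0, Mx1 had 3.60, 4.84 and 6.10 CPM in replicates 1 to 3, against 4.88, 8.06 and 8.24 CPM in replicates 4 to 6, so that the sets overlapped. The log2 difference was -0.40 for Oasl2, -0.48 for Rsad2 and -0.15 for Parp14. In replicates 1 to 3 of WT M2, Oasl2 had 25.9, 27.1 and 42.6 CPM, against 45.4, 48.2 and 51.5 CPM in 4 to 6. Rsad2 there had 21.6, 27.8 and 38.6 CPM in 1 to 3, against 40.3, 49.9 and 67.3 CPM in 4 to 6, and Parp14 had 141, 151 and 154 CPM in 1 to 3, against 159, 161 and 168 CPM in 4 to 6. For all 3 genes the sets of WT M2 did not overlap, and their other groups are not listed. The genes named here were picked by the comparison of the sets itself. The share of all genes whose sets do not overlap within a group was not counted. The count of 6 was 2 without the 3 libraries numbered apart. With 1 library left out it was 4 to 7. The calls of Mx1 and Rsad2 were lost without WT M0 replicate 3 or 5, WT M2 replicate 1, 2 or 4 or KO M2 replicate 2 or 5, and that of Mx1 also without WT M2 replicate 5 or KO M0 replicate 1, 5 or 6 (highest edgeR adjusted p = 0.0769 for Mx1 and 0.0586 for Rsad2).

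Within the sets the main IL-4 results kept their direction. Ifit3 had log2 fold changes of -1.71 in replicates 1 to 3 and -2.40 in 4 to 6 of KO macrophages. In WT the values were -1.87 and -1.30. Irf1 had 1.33 in replicates 1 to 3 and 1.2 in 4 to 6 of KO, and 0.97 and 0.87 in WT. The genotype difference of Ifi44 with IL-4 was -0.90 in replicates 1 to 3 and -2.5 in 4 to 6, and that of Oasl1 -1.95 and -2.35. No member passed the threshold when a response or genotype difference in replicates 1 to 3 was set against that in 4 to 6 (in all genes 0% for IL-4 in KO, 0.0156% for IL-4 in WT, 0.781% for KO with IL-4 and 1.81% for KO without). At an unadjusted p below 0.05 there were 2 members for IL-4 in KO (6.04% of all genes), 0 for IL-4 in WT (2.81%), 8 for KO with IL-4 (10.4%) and 8 for KO without IL-4 (14.2%).

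Single libraries also stood out over many members. WT M0 replicate 5 was the highest of its group for 26 of the 39 tested members, and WT M2 replicate 5 for 16. Replicate 5 was also highest for 13 members in KO M2 and 15 in KO M0. KO M0 replicate 4 was the lowest of its group for 21 members. The share of all genes tested for which the same library is highest or lowest was not counted. Whether these ranks are particular to the members is therefore not known.

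**Figure D5:**
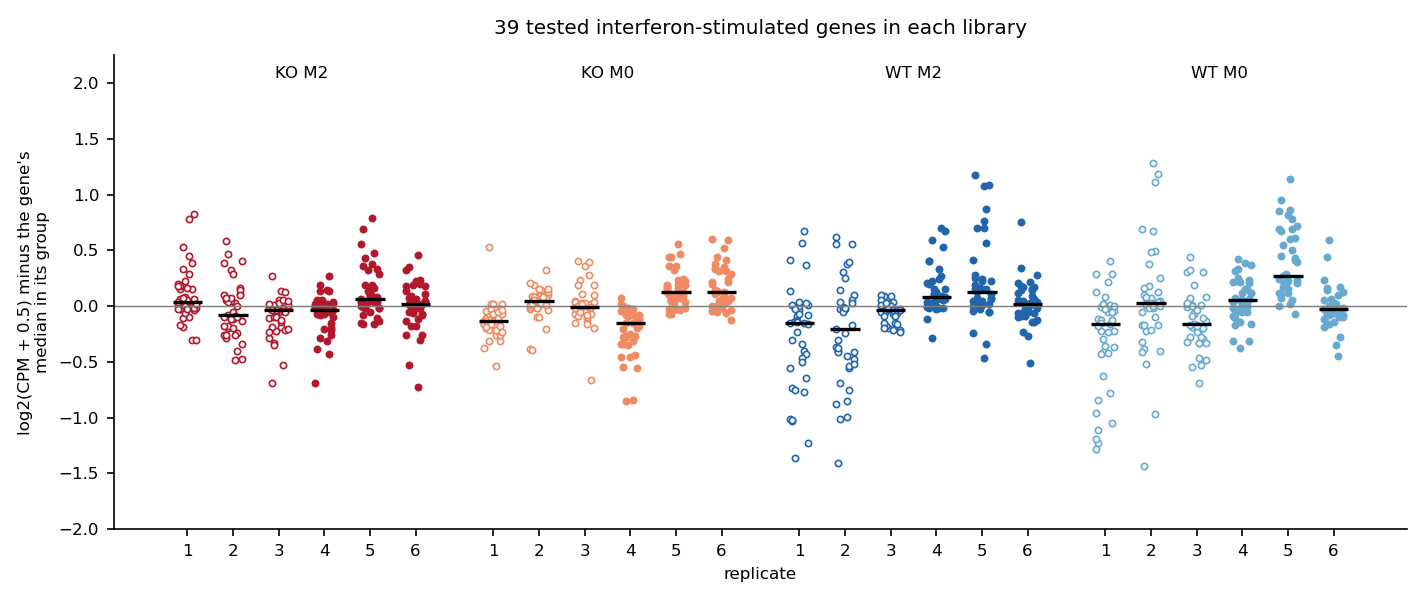
Each of the 39 tested members (points) in each library, as log2(CPM + 0.5) minus the gene's median in its group (y axis), with the median over members as a black bar, by group and replicate (x axis), open for replicates 1 to 3. WT M0 replicate 5 lies highest, being the top library of its group for 26 members, and KO M0 replicate 4 lies low, at the bottom for 21. Ranks over all genes were not counted.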

How the data were processed

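Per the labels' protocols the 24 libraries were sequenced from 1 end for 40 bp. The sources used here do not give strandedness. The expected counts that the authors deposited are whole numbers, rounded per the file headers. The submitters' processing notes list Bowtie2 2.3.4.1, RSEM 1.3.0 and CASAVA 2.8.0, edgeR without a version, and the build mm10. The authors also deposited GETMM values, a signal equal to the expected count times 1 factor for the gene and 1 for the library, checked on 13047 genes. All columns were matched to samples by name.

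The filterByExpr rule of edgeR, with a minimum count of 10, kept 12797 genes (99.8% of counts). They were scaled by TMM and tested in 1 fit over the 4 groups with the robust quasi-likelihood test of edgeR 4.0.16 (R 4.3.3). Adjusted p is Benjamini-Hochberg over all genes tested, with a threshold of 0.05. An SE is the fold change over the root of F. CPM use TMM library sizes, except in sums over marker lists and limits for a count of 0, which use total counts. The script was tested on simulated counts. No 2 libraries of a group were alike within sampling noise (lowest chi-square over its degrees of freedom 2.66).

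Replicates 1 to 3 were compared with 4 to 6 with group as a term, and responses by set in a fit of group and set together. Coordinates are from GENCODE M21 and promoters from RefSeq, both on GRCm38, which mm10 names. The members, the lists of pathway and marker genes and the tests were chosen with earlier results of these data known. In each comparison the values of up to 8 members in each direction with the largest change past the threshold, and of all transcription factors, were given, and other members named with values were chosen after their values were seen. Alternatives were RLE size factors, DESeq2 1.42.0, limma 3.58.1 on log2(GETMM + 1), no filter, CPM of at least 1 in 6 libraries, the set as a term, replicate or culture number as a block, 2 groups only, each set alone, no libraries numbered apart, and each library left out, which for the comparison of the sets was added after seeing the data. Values of 1 gene of the pathway list are not reported here.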

Additional observations from a re-analysis of the deposited data

Results flagged for a closer look

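In 11 of 156 groups of 6 libraries (39 tested members in 4 groups), 1 library stood apart from the other 5 by the gap to its nearest neighbour relative to the whole range, where chance flags about 1 in 20 groups. Ifit1 was 11 CPM in WT M2 replicate 5, above the others. Ifit1 in KO M2 replicate 1 was 5.58 CPM, and Ifit3 in the same library was 6.69 CPM, each the highest of its group. Rsad2, at 100.1 CPM, and Cmpk2, at 33.5 CPM, were highest in WT M0 replicate 5. In WT M0 replicate 2, Irf1 was highest at 60.5 CPM, Gbp2 at 39.9 CPM and Gbp5 at 10.5 CPM. Bst2 was highest in WT M2 replicate 2, at 61.2 CPM, a library numbered apart, in which Herc6 was lowest, at 18.6 CPM. Irgm1 was lowest in KO M0 replicate 4, at 40.8 CPM.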

How the results depend on the processing

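No scaling moved the median of all genes by over 0.1 (log2). Of the values for named members, 1972 kept their direction and side of the threshold, 194 fell short of it, 5 passed it newly and 26 changed sign, all of these short of the threshold before and after. In replicates 1 to 3 alone, log2 values turned to 0.11 for Stat2 with IL-4 in WT, 0.000106 for Stat2 with IL-4 in KO, -0.030 for Irf1 between genotypes with IL-4 and -0.11 for the Stat2 difference of responses, and in 4 to 6 alone to 0.25 for Irf1 between genotypes without IL-4. The Stat2 difference was also -0.00362 with RLE, -0.00549 with no filter, -0.000553 with the replicate block, -0.00524 with the culture block, -0.027 with limma and -0.00392 with DESeq2. Leaving out 1 library gave -0.0916 to 0.022 for Stat2 with IL-4 in WT, -0.0697 to 0.0415 for its difference, and, between genotypes without IL-4, -0.0164 to 0.0551 for Irf9 and -0.136 to 0.0648 for Irf1. Members lower with IL-4 in WT (16) were 6 with no count filter, 10 without the libraries numbered apart, 6 in replicates 1 to 3 alone, 9 in 4 to 6 alone and 7 with 2 groups only, and the 1 higher became 2 with culture number as a block. All genes called there (2103) were 860 in replicates 1 to 3 alone. In KO, the 2 members higher with IL-4 were 1 in replicates 1 to 3 alone, 4 in 4 to 6 alone and 4 with 2 groups only, and the 3024 genes were 1469 in 1 to 3 alone. Between genotypes without IL-4, the 2 lower members were 1 with no filter, 4 without the libraries numbered apart, 0 in replicates 1 to 3 alone, 8 in 4 to 6 alone and 1 with limma, and the 579 genes were 953 in 4 to 6 alone. With IL-4, the 3 lower members were 5 with the replicate number as a block, 0 in replicates 1 to 3 alone and 6 in 4 to 6 alone, the 0 higher became 1 in 4 to 6 alone, and the 588 genes were 309 and 1059 in those sets. For the difference of responses, the 0 genes became 21 in replicates 4 to 6 alone, 2 with culture as a block, 3 with limma and 1 with DESeq2. For replicates 1 to 3 against 4 to 6, the 6 lower members were 2 with no filter and 2 without the libraries numbered apart, and the 484 genes were 278 with no filter. Of the set differences, those of IL-4 in WT (2 genes) gave 138 with no filter and 0 without the libraries numbered apart, and those of IL-4 in KO gave 1 member higher and 311 genes with no filter. Those of genotype without IL-4 gave 2 members higher, 2 lower and 792 genes with no filter, and 2 members lower and 833 genes, in place of 232, without the libraries numbered apart. Those of genotype with IL-4 gave 8 members higher, 2 lower and 569 genes with no filter, and 25 genes, in place of 100, without the libraries numbered apart. The cause was not tested. Leaving out each library in turn gave 7 to 17 lower and 1 to 2 higher members for IL-4 in WT (1753 to 2273 genes), 14 to 20 lower and 2 to 3 higher for IL-4 in KO (2650 to 3242 genes), 1 to 3 lower for KO without IL-4 (435 to 650 genes), 2 to 5 lower for KO with IL-4 (479 to 656 genes), and 4 to 7 lower for the sets (335 to 767 genes). The labels give each M2 library and 1 M0 library of its genotype a shared culture number without saying what it marks. The main fit did not treat these libraries as paired, and the correlations do not settle whether they are. Deviations of M2 and M0 libraries with 1 culture number correlated between 0.0105 and 0.354 in WT and between -0.0448 and 0.259 in KO. An M2 library correlated best with the M0 library of its own number for replicates 1 and 5 in WT and 1, 3, 4 and 5 in KO. Deviations of KO and WT libraries with 1 replicate number correlated between -0.07 and 0.482 with IL-4 and between -0.296 and 0.172 without. Not every library correlated best with its own number. With culture number as a block the lower members with IL-4 were 23 in KO and 20 in WT, in place of 16 each. Apart from the changes given above for the replicate and culture blocks, neither block changed any other count by over 1.5 times. Depth limits Oasl1, Ifi44, Mx2 and Isg20, all under 5 CPM in every library, and Ifi44l, at 0.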
